A study of Sus scrofa with 6 samples.

Results

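Intronic long non-coding RNAs (lncRNAs) are transcripts that lie wholly within an intron of another gene, here called the host gene. They were taken as all transcripts with class code i in the authors' table of predicted lncRNAs, which gave 505 of 4046 transcripts (12.5%), and the host was read from the gene name beside each transcript. Of the rest, 3310 were intergenic, 174 lay antisense to an exon and 57 overlapped an exon or shared a splice junction. The 505 transcripts fell in 307 hosts, of which 215 held 1 and 92 held several, and 465 of the 505 had 1 exon.

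RNA came from longissimus dorsi muscle (LDM), a glycolytic back muscle, and psoas major muscle (PMM), an oxidative loin muscle, of female Qingyu pigs, a Chinese native breed spelled Qinyu in the labels, at 178 days of age. Each muscle had 3 libraries, and no treatment or genotype separated them. The sources used here call the libraries biological replicates but do not give the pig behind each one. The p-values therefore measure the spread between these libraries. Levels are FPKM, the authors' count of fragments scaled by transcript length and by the mapped fragments of the library.

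An intron can give rise to RNA in more than one way. A separate gene with its own promoter can lie inside it and can be spliced, or the intron can be seen as part of the unspliced precursor of the host before it is removed. In libraries of total RNA depleted of ribosomal RNA both kinds of molecule are sequenced, and an unspliced stretch of intron looks like a transcript of 1 exon. For the 465 transcripts of 1 exon, the origin from the host precursor and from a separate unit cannot be told apart in these values. Host mRNA levels were not analysed here, so the host's own level is not given beside its intronic transcript, and muscle marker genes could not be checked because the table lists lncRNAs.

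The libraries were of similar depth, but LDM replicate 2 stood apart. The ratio of coverage to FPKM placed 7.24 to 8.78 gigabases behind the LDM values and 7.52 to 7.86 behind the PMM values. The number of intronic transcripts above 0 FPKM was 293, 333 and 262 in LDM replicates 1, 2 and 3 and 280, 261 and 256 in PMM. The means were 296 ± 35.6 (SD, n = 3) in LDM against 266 ± 12.7 (SD, n = 3) in PMM, and the ranges overlapped. At 1 FPKM or more, 276 transcripts were listed in LDM replicate 2, against 58 to 181 in the other 5 libraries. Their summed FPKM was 691 in LDM replicate 2 and 286 to 473 in the others, although this library had the fewest gigabases. Other lncRNAs were high there as well, since the intronic transcripts held 5.25% of all lncRNA FPKM in LDM replicate 2, the lowest share of the 6 libraries. That share was 7.22%, 5.25% and 6.29% in LDM against 8.02%, 8.44% and 8.22% in PMM, without overlap. The means were 6.25% ± 0.988 and 8.22% ± 0.211 (SD, n = 3 each, exact permutation p = 0.1, the smallest that 3 against 3 allow). Of the 505 transcripts, 204 had their highest coverage in it. Results that rest on this library are given with and without it where both were computed.

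**Figure D1:**
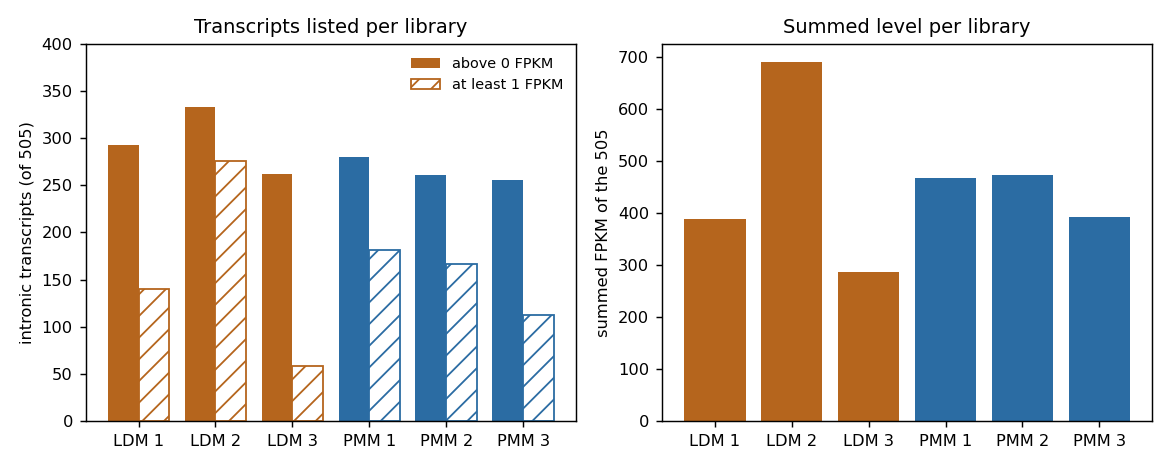
Number of the 505 intronic transcripts above 0 FPKM (filled bars) and at 1 FPKM or more (hatched bars), and their summed FPKM, in each of the 6 libraries (LDM brown, PMM blue). LDM replicate 2 held 276 transcripts at 1 FPKM or more and a summed level of 691 FPKM, above each other library.

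Most intronic lncRNAs were low and were not seen in every library. Of the 3030 values, 44.4% were listed at 0, and the median transcript had a mean of 0.426 FPKM over the 6 libraries. Only 90 transcripts (17.8%) were above 0 in all 6 libraries, while 104 (20.6%) were above 0 in 1 library alone. Of those 104, LDM replicate 2 held 37 and the others 3 to 23 each. For these 104 the median coverage was 10.01, and the median value corresponded to 49.95 reads of 150 bases, with each end of a pair counted as a read. The 10th percentiles were 7.15 and 17.3. This coverage was near the low end of the class, as the highest coverage of each of the 505 had a 10th percentile of 9.36 and a median of 10.9.

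A few transcripts held much of the signal. The highest in both muscles was MSTRG.12038.1 (chr3:77598275-77599925, + strand; positions as deposited), 1651 bases in 1 exon within DNAAF10, which encodes a factor for assembly of axonemal dynein. It was at 46.5, 49.1 and 43.5 FPKM in LDM against 38.9, 36.9 and 40.7 in PMM. All LDM values were above all PMM values, and the transcript alone made up 7.11% to 15.2% of the summed intronic FPKM of a library. The log2 difference, LDM minus PMM on the log2(FPKM + 1) scale, was nevertheless small at 0.25 (SE 0.31, adjusted p = 0.807, limma).

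MSTRG.992.1 in EXD1 (chr1:145268864-145278368, + strand), a gene known in mouse for its part in the piRNA pathway, was at 15.7, 23.9 and 21.7 FPKM in LDM against 1.96, 19.2 and 23.6 in PMM. PMM replicate 1 was low and the other 5 libraries overlapped. The log2 difference was 0.90 with all libraries and -0.08 without PMM replicate 1. MSTRG.10182.1, in a host listed only as ENSSSCG00000013671, was at 11.6, 15.8 and 9.21 FPKM in LDM against 8.92, 12.8 and 10.4 in PMM, with overlapping muscles. The 4 highest transcripts, these 3 and one in MRPS18A described below, together held 14.8% to 29.4% of the intronic FPKM. Each of the 4 had a mean of at least 10 FPKM in each muscle, and no other intronic transcript reached that mean in either one.

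Transcripts of 2 or more exons were seen repeatedly more often than those of 1 exon. Of the 465 with 1 exon, 166 had a level above 0 FPKM in each library of 1 muscle or both (35.7%, 95% exact binomial interval 31.3 to 40.2). Of the 40 with 2 or more exons, 39 were (97.5%, 86.8 to 99.9). In all 6 libraries 54 of the 465 (11.6%) and 36 of the 40 were listed. The intervals did not overlap, but they cover counting error only and treat transcripts as independent, which those of 1 host may not be.

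Transcripts with more exons were also longer and higher. The median length was 997 bases with 1 exon and 2972.5 with 2 or more, and the median mean level was 0.391 and 1.15 FPKM. The same detection was seen for 59 of 137 transcripts of 1 exon and at least 2000 bases (43.1%), and for 13 of 14 of 2 or more exons and under 2000 bases. The part of length in the difference by exon number was not tested. The one exception among the 40 was MSTRG.1688.2 in INVS, a gene named for inversion of left-right asymmetry. It was at 0.966 FPKM in LDM replicate 3 and listed at 0 in the other 5 libraries. It overlapped MSTRG.1688.1 of the same host on the same strand, and the pair had an r of -0.99. Their summed level was 1.26, 1.42 and 0.967 FPKM in LDM against 1.46, 1.39 and 1.61 in PMM, so the locus itself was seen in every library.

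Among spliced transcripts, CACNA2D1, CMSS1, KLF13 and GRB10 hosted the 4 of highest mean FPKM. MSTRG.18917.1 lay in CACNA2D1 (chr9:108203866-108210033, + strand), which encodes the α2δ subunit of voltage-gated calcium channels. It was at 4.47, 5.43 and 2.19 FPKM in LDM against 4.86, 7.53 and 5.74 in PMM, with overlapping muscles. MSTRG.5484.1 in CMSS1 was among the steadiest, at 4.21, 4.88 and 2.57 in LDM against 3.75, 4.48 and 3.76 in PMM.

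MSTRG.1065.1, 4 exons in 949 bases, lay in KLF13, a Krüppel-like transcription factor, at 1.89, 2.78 and 4.20 FPKM in LDM against 2.31, 5.25 and 4.44 in PMM. MSTRG.19192.1 in GRB10, an adaptor that binds the insulin receptor, was at 7.49, 1.69 and 1.18 in LDM against 4.88, 1.31 and 1.81 in PMM. Replicate 1 was the highest library of each muscle for the GRB10 transcript, and the spread within a muscle exceeded the difference between them. None of these 4 passed the test, with adjusted p from 0.695 to 0.956 (limma).

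Transcripts that shared a host were detected less often than those alone in theirs. Of the 215 transcripts alone in their host, 108 met this rule of detection (50.2%, 43.4 to 57.1), and of the 290 that shared a host, 97 were (33.4%, 28.0 to 39.2). Part of the split moved with exon number, as 13.5% of the first and 3.79% of the second had 2 or more exons. Within transcripts of 1 exon the shares were 42.5% (35.3 to 49.9) and 31.2% (25.8 to 37.0), and these intervals overlapped. Without LDM replicate 2 the shares of all members were 55.8% and 37.6%. With all libraries, hosts with 4 or more had 50 of 144 transcripts detected (34.7%), so the share did not fall further with the number.

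**Figure D2:**
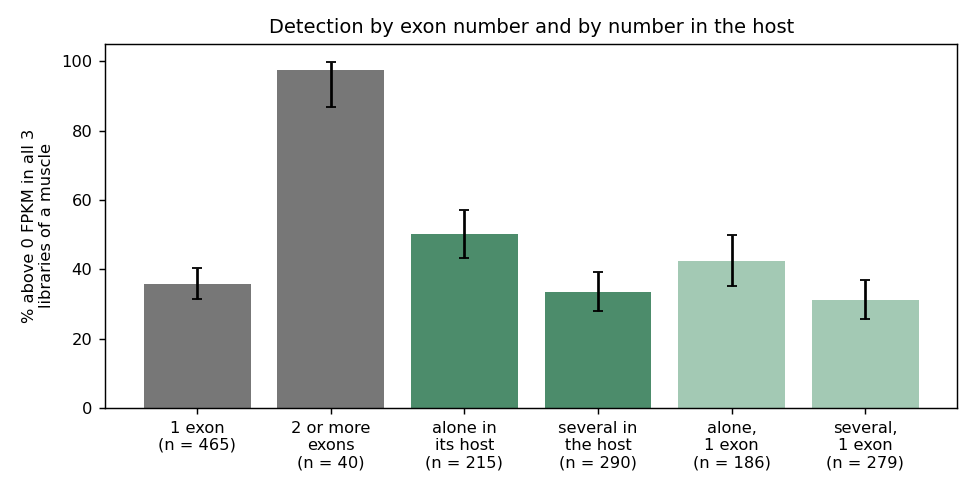
Share of intronic transcripts listed above 0 in each of the 3 libraries of 1 muscle or both, with exact 95% binomial intervals, by exon number, by whether the transcript was alone in its host, and by the latter among transcripts of 1 exon. The bar for 2 or more exons stands at 97.5%, and those for 1 exon, alone and several at 35.7%, 50.2% and 33.4%.

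Transcripts that shared a host mostly lay on 1 strand and close together. In 79 of the 92 hosts with several, all lay on the same strand. The 198 consecutive pairs within a host had a median gap of 5225 bases, and 90.4% lay on 1 strand, against 52.4% of the 288 consecutive pairs from different hosts. Pairs of 1 host also ran more alike over the 6 libraries, with a median Pearson r of 0.385 on the log2 scale against 0.165. These correlations are a description over 6 shared libraries, and pairs of transcripts listed in few libraries enter them too. Where both of a pair were above 0 in all 3 libraries of a muscle, the medians were 0.756 (32 pairs of 1 host) and 0.231 (57 pairs of different hosts). The medians were not computed without LDM replicate 2, the library of highest coverage for 44.8% of the transcripts that shared a host. How far they rest on that library was therefore not tested.

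SCAF8, whose product binds RNA polymerase II, hosted 10 intronic transcripts over 47051 bases of chromosome 1, all of 1 exon and on the minus strand. Of these 10, 4 were above 0 in all 3 libraries of a muscle and 8 were listed in LDM replicate 2, against 4 or 5 in each other library. MSTRG.113.1 was listed in every library, at 1.86, 1.35 and 0.531 FPKM in LDM against 1.27, 1.69 and 1.23 in PMM. The median r among the 45 pairs was 0.20, so the 10 did not follow 1 profile.

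PITPNC1, a phosphatidylinositol transfer protein, hosted 8, of which 1 passed the same detection rule. Their summed level was 0.679, 9.28 and 1.48 FPKM in LDM against 3.10, 3.52 and 0 in PMM, highest in LDM replicate 2. ASXL2, a Polycomb-related chromatin gene, hosted 7 with 3 detected, and POU2F1, the transcription factor OCT1, hosted 6 with none detected by this rule. The median r fell from 0.44 to 0.02 for PITPNC1 and from 0.44 to 0.04 for POU2F1 without LDM replicate 2.

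In 4 of the 92 hosts with several transcripts, singled out after their values were seen, all members were listed in all 6 libraries. In LIMCH1 and in a host listed as ENSSSCG00000024210, each with 2 transcripts, the pair did not run together (r of -0.00098 and -0.15), while in PDLIM5 and TP63 the members did. PDLIM5 encodes a PDZ and LIM domain protein of the Z-disc, and its 4 intronic transcripts ran nearly in parallel, with a median r of 0.96 (0.90 without LDM replicate 2). MSTRG.18144.1 was at 1.998, 13.0 and 1.87 FPKM in LDM against 1.75, 5.17 and 2.93 in PMM, and MSTRG.18145.1 at 1.76, 12.8 and 1.92 against 2.31, 6.06 and 3.31. Replicate 2 was the highest library in each muscle for all 4.

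Without LDM replicate 2 the log2 difference of MSTRG.18145.1 went from 0.05 to -0.71 and that of MSTRG.18144.1 from 0.28 to -0.47, so the direction for PDLIM5 rested on this library. TP63, a p53-family transcription factor, held 3 transcripts of 2 exons, which ran together with a median r of 0.93, as well without LDM replicate 2. MSTRG.5261.1 was at 1.61, 2.75 and 0.970 FPKM in LDM against 1.57, 4.41 and 2.52 in PMM. Their log2 differences were -0.45, -0.31 and -0.52, and none passed the test.

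**Figure D3:**
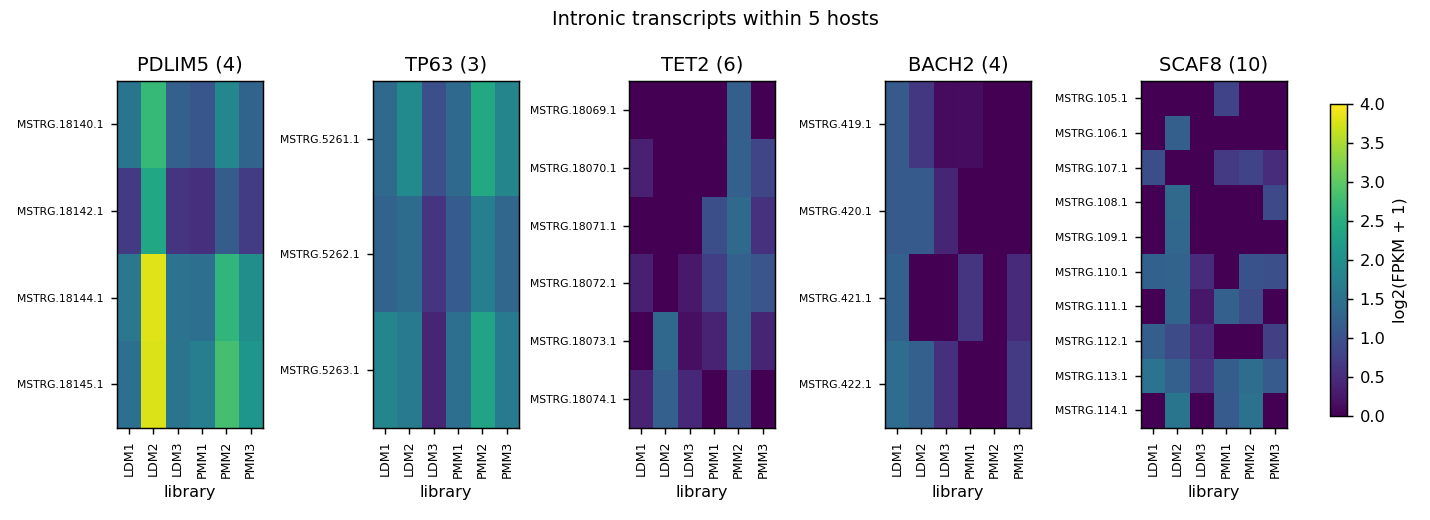
Level of each intronic transcript, as log2(FPKM + 1), in the 6 libraries for the hosts PDLIM5, TP63, TET2, BACH2 and SCAF8, with the number of transcripts in parentheses. Rows of PDLIM5 and TP63 share a profile (median r of 0.96 and 0.93), while the 10 rows of SCAF8 do not (0.20).

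Between the muscles, 205 intronic transcripts were tested, those that met the same rule of detection, within a limma fit of all 1721 such lncRNAs. None of the 205 passed an adjusted p of 0.05 in either direction, where 0.0581% of all tested lncRNAs passed as higher in LDM against 0.116% as higher in PMM. At an unadjusted p under 0.05, 22 of the 205 passed (10.7%), against 7.84% of all tested. When the absolute log2 difference also had to reach 1, 3 intronic transcripts were higher in LDM (1.46%, against 1.34% of all tested) and 6 in PMM (2.93%, against 2.44%). These shares lay near those of all lncRNAs. With a library left out, the filter asked only for the libraries that remained in its muscle, so more transcripts were tested. Without LDM replicate 2 the counts at this second rule were 1 and 15 of 229 intronic transcripts. Of all tested lncRNAs, 1.18% and 4.21% were higher in LDM and PMM in that fit. Without LDM replicate 3 the counts were 13 and 8 of 247, beside 5% and 2.09% of all tested. Without PMM replicate 3 they were 4 and 15 of 230, beside 1.14% and 3.92%. The balance between the muscles thus moved in the same direction in all lncRNAs when these libraries were left out.

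No overlap between the muscles was seen for 16 transcripts with the higher level in LDM (7.80%, against 5.87% of all tested) and 21 higher in PMM (10.2%, against 9.01%). Every PMM library listed 0 for 10 of the 16 (4.88% of the 205, against 3.54% of all tested), and every LDM library listed 0 for 3 of the 21 (1.46%, against 0.813%). The median log2 difference was 0.02 over the 205 and -0.01 over all tested, with 103 above 0 and 102 below. A transcript had to be above 0 in all 3 libraries of only 1 muscle to be tested, so one that was absent from the other muscle had to differ. With 3 libraries against 3, an exact two-sided permutation test of 1 transcript cannot go below p = 0.1.

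**Figure D4:**
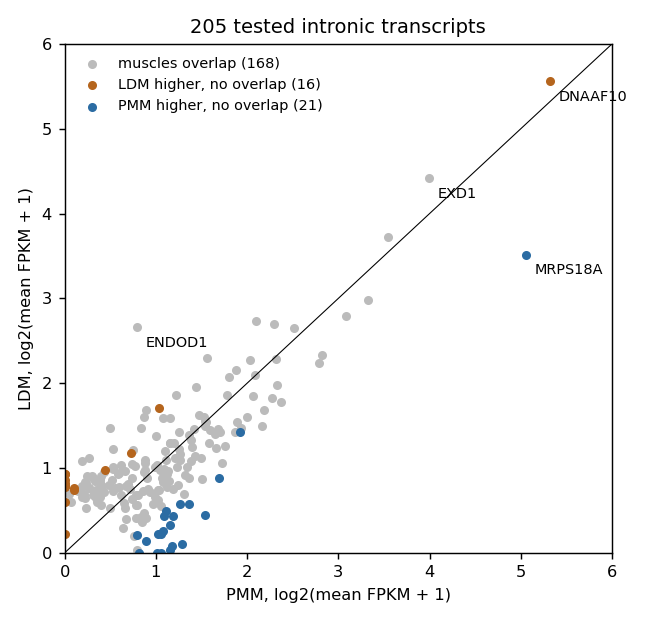
Mean level of the 205 tested intronic transcripts in PMM (x axis) and LDM (y axis), as log2(mean FPKM + 1), with the line of equal level. Transcripts whose muscles did not overlap are coloured (16 higher in LDM, 21 higher in PMM), and MRPS18A lies farthest below the line among those of high level.

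The transcript of smallest p lay in MRPS18A, a mitochondrial ribosomal protein gene. MSTRG.16795.1 (chr7:44313580-44314703, + strand) is 1124 bases in 1 exon. It was at 8.17, 13.6 and 9.55 FPKM in LDM against 43.8, 23.5 and 29.5 in PMM, so that each PMM library was above each LDM library. The means were 10.4 ± 2.82 and 32.3 ± 10.4 FPKM (SD, n = 3 each), a 3.09-fold higher level in PMM. The log2 difference was -1.52 (SE 0.34), with an adjusted p of 0.107 in limma and an exact permutation p of 0.1.

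The replicate numbers were taken to pair the libraries, and with the number as a block the MRPS18A transcript had an adjusted p of 2.9e-05 (limma). In that fit 3 intronic transcripts were called, 2 higher in LDM (1.1% of all tested lncRNAs were) and 1 in PMM (1.69% were). That fit assigned each transcript only the spread shared by transcripts of its level (prior degrees of freedom infinite), so its own spread did not enter the p. Each of the 3 had a spread of its own above the moderated spread that the fit assigned to it, so these p-values overstate the evidence. The labels state no pairing, and it was chosen from correlations in these same values. Over the 13 other fits the adjusted p of the MRPS18A transcript ranged from 2.9e-05 to 0.581, and it was under 0.05 in 4 of them, with the PMM level higher in each.

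The other 2 transcripts called with the block were ENDOD1 and FADS1, named after their values were seen. MSTRG.18470.1, 237 bases in ENDOD1, was at 0.239, 6.91 and 8.85 FPKM in LDM against 0.0834, 2.104 and 0 in PMM. LDM replicates 2 and 3 were high, but replicate 1 lay below PMM replicate 2, and the adjusted p was 0.527 without and 0.000499 with the block (limma), up to 0.712 over the other fits. MSTRG.9698.1, 205 bases in FADS1, the delta-5 fatty acid desaturase, was at 3.32, 2.82 and 5.67 in LDM against 0.251, 0 and 5.62 in PMM. PMM replicate 3 was as high as LDM replicate 3, and the adjusted p was 0.596 without and 0.0168 with the block (limma), up to 0.819 over the other fits.

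A further 7 transcripts higher in PMM were low in LDM and near 1 to 2 FPKM in each PMM library or somewhat below. They were picked for no overlap between the muscles and for small p. Each entered the test only through PMM, the muscle where it was high, so neither the lack of overlap nor the p supports a difference. MSTRG.3762.1 in TAF15, an RNA-binding protein of the FET family, was at 0.223, 0 and 0 FPKM in LDM against 1.40, 1.69 and 1.21 in PMM. MSTRG.18350.1 in NEU3, the ganglioside sialidase of the plasma membrane, was at 0.0710, 0 and 0 against 1.23, 1.42 and 1.004. MSTRG.12017.1 in AAK1, a kinase of clathrin-mediated endocytosis, was at 0, 0 and 0.184 against 1.56, 1.17 and 1.06. Their log2 differences of -1.18, -1.11 and -1.09 carried adjusted p of 0.420, 0.443 and 0.462 (limma). The summed level of all intronic transcripts of the host overlapped between the muscles for TAF15 (0.657, 2.04 and 0.397 in LDM, 1.40, 4.13 and 2.38 in PMM) and for NEU3 (0.350, 1.94 and 0.0623 in LDM, 1.496, 3.44 and 1.87 in PMM).

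MSTRG.2003.1 in RAPGEF1, an exchange factor for the GTPase RAP1, was listed at 0 in all 3 LDM libraries and at 1.23, 1.17 and 0.852 FPKM in PMM. MSTRG.13527.1 in CDC14A, a protein phosphatase, was at 0, 0.878 and 0.196 in LDM against 2.08, 2.01 and 1.65 in PMM. MSTRG.6694.1 in HOGA1, a mitochondrial aldolase of hydroxyproline breakdown, was at 0.156, 0 and 0.343 against 1.29, 1.005 and 0.926. These 3 were likewise picked for no overlap, and the adjusted p were 0.462, 0.462 and 0.601 (limma).

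TET2, an enzyme that oxidises 5-methylcytosine, hosted 6 intronic transcripts on the minus strand. MSTRG.18071.1 was listed at 0 in the 3 LDM libraries and was at 0.952, 1.6 and 0.481 FPKM in PMM (adjusted p = 0.527, limma). Its neighbour MSTRG.18072.1 was at 0.278, 0 and 0.206 in LDM against 0.675, 1.34 and 1.07 in PMM, also without overlap. The summed level of all 6 was 0.895, 2.88 and 0.685 in LDM against 1.94, 7.82 and 2.67 in PMM, and here the muscles overlapped.

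**Figure D5:**
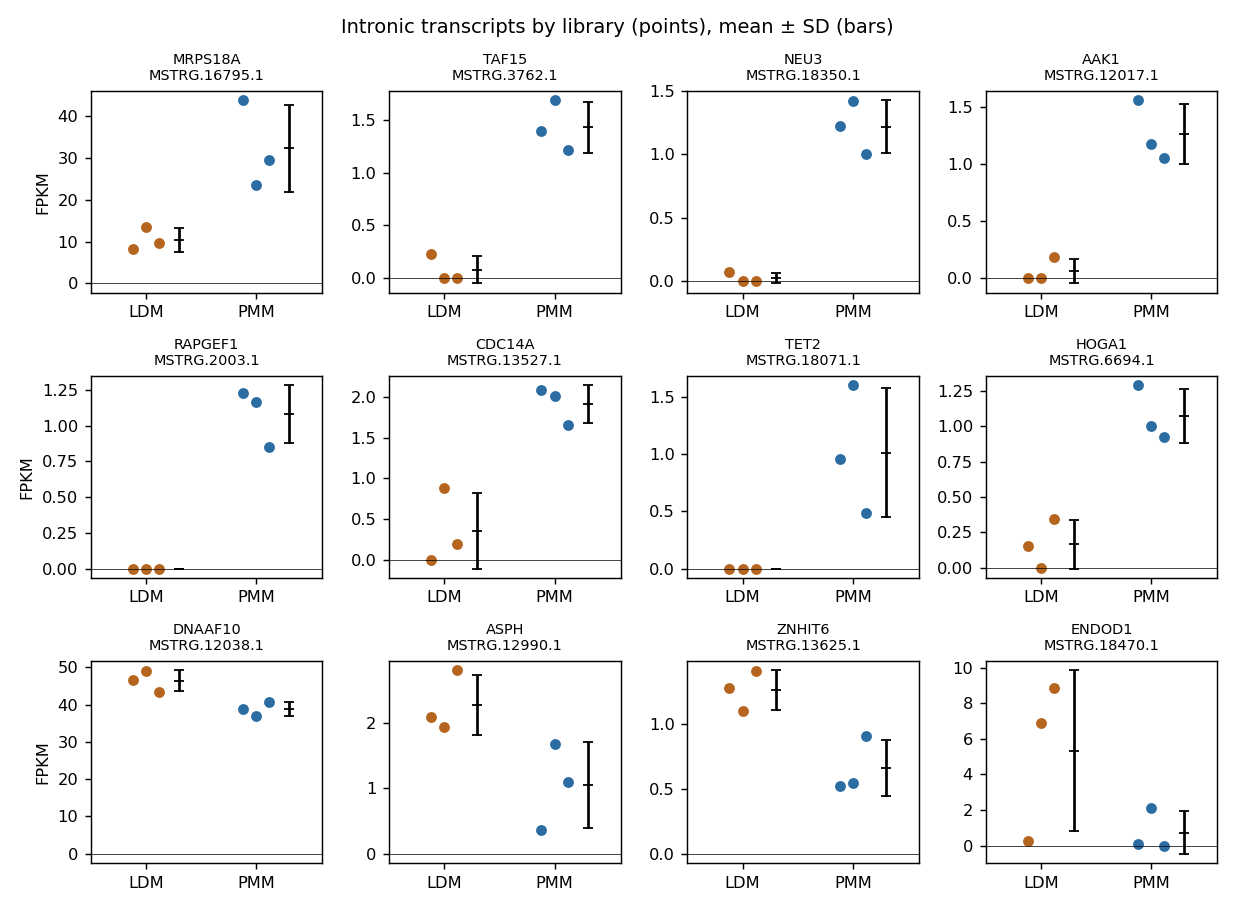
FPKM of 12 intronic transcripts in each library (points), with mean ± SD of the 3 libraries beside them, for LDM (brown) and PMM (blue); each panel names the host and the transcript and has its own axis. The first 8 panels show transcripts higher in PMM without overlap, led by MRPS18A (10.4 and 32.3 FPKM), the next 3 those higher in LDM, and ENDOD1 overlaps.

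In LDM, 3 transcripts with a mean of at least 1 FPKM there were higher without overlap, the DNAAF10 transcript and those in ASPH and ZNHIT6. The PMM list was cut at 8, and the share of all tested lncRNAs at this level was not counted, so the muscles are not compared by it. At any level, 7.80% of the 205 were higher in LDM without overlap and 10.2% in PMM, against 5.87% and 9.01% of all tested. The ASPH locus encodes aspartate β-hydroxylase and also junctin of the sarcoplasmic reticulum. Its intronic transcript MSTRG.12990.1, 4 exons in 2267 bases, was at 2.09, 1.93 and 2.80 FPKM in LDM against 0.369, 1.67 and 1.10 in PMM, with a log2 difference of 0.72 (SE 0.38, adjusted p = 0.622, limma). MSTRG.13625.1, 3 exons in ZNHIT6, an assembly factor of box C/D snoRNPs, was at 1.27, 1.10 and 1.40 against 0.523, 0.548 and 0.911 (adjusted p = 0.743, limma).

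BACH2, a transcriptional repressor, hosted 4 transcripts whose summed level was 5.43, 3.08 and 0.895 FPKM in LDM against 0.617, 0 and 1.01 in PMM, chosen after its values were seen. MSTRG.420.1 was at 1.20, 1.19 and 0.339 in LDM and at 0 in every PMM library. For the sum, LDM replicate 3 lay below PMM replicate 3, so the muscles overlapped. When FPKM were summed per host, 177 of the 307 hosts could be tested, and none passed an adjusted p of 0.05 in limma, while 20 passed an unadjusted p of 0.05 (11.3%, against 7.44% of all 1693 features in that fit). The smallest adjusted p, 0.149, was again that of MRPS18A, followed by AAK1, whose 3 transcripts summed to 0, 0 and 0.305 FPKM in LDM against 1.56, 3.81 and 1.91 in PMM (log2 difference -1.59, adjusted p = 0.155, limma).

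In 25 hosts, 2 or more transcripts were tested, 67 in all. Of these hosts, 13 had differences of 1 sign and 12 of both. Among the 14 hosts with exactly 2 tested, 8 had 1 sign. The number of hosts of 1 sign to be had by chance was not computed. By exon number, 21 of 166 tested transcripts of 1 exon (12.7%) and 1 of 39 of 2 or more exons (2.56%) passed an unadjusted p of 0.05 in limma. Of all tested lncRNAs 7.84% passed, and their share by exon number was not counted. The median absolute difference was 0.40 and 0.31. All 13 tested intronic transcripts at 0 in every library of a muscle had 1 exon. These had to differ to be tested, so the filter enters this split.

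Hosts were also read against lists of genes for muscle functions. The sarcomere, costamere and excitation-contraction coupling list had 6 hosts with 10 intronic transcripts, of which 8 were tested and 0 passed an adjusted p of 0.05. Of the 8, 7 were higher in LDM, with a median log2 difference of 0.41 against -0.01 over all tested lncRNAs. Without LDM replicate 2, 3 of the 8 were higher in LDM and the median was -0.09, and 4 of the 8 lay in PDLIM5. The list's smallest p was that of MSTRG.12917.1 in JPH1, junctophilin of the triad, at 1.84, 2.85 and 0.652 FPKM in LDM against 0, 0.00113 and 1.22 in PMM (adjusted p = 0.596, limma). The muscles overlapped there, as PMM replicate 3 lay above LDM replicate 3.

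Ubiquitin ligases and proteolysis genes gave 7 hosts with 13 transcripts, of which 6 were tested and none passed. MSTRG.15611.1, 317 bases in TRIM63, the muscle ubiquitin ligase MuRF1, was the highest, at 4.41, 7.06 and 6.24 FPKM in LDM against 7.79, 8.24 and 6.43 in PMM, with overlapping muscles. MSTRG.1178.1 in the ubiquitin ligase NEDD4L was at 2.23, 0.229 and 0.600 against 0.616, 0.221 and 0.509, and its difference changed sign without LDM replicate 1. MSTRG.808.1 in RNF111, the ligase Arkadia, was at 0.203, 1.44 and 0.490 against 1.42, 0.823 and 1.30.

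Small GTPases and their regulators gave 8 hosts with 25 transcripts, but only 5 were tested, and none passed. Besides RAPGEF1, MSTRG.13454.1 in the GTPase RAP1A was at 0.854, 1.28 and 0.302 FPKM in LDM and at 0 in every PMM library, the opposite direction to the transcript in RAPGEF1. The 5 intronic transcripts of RAP1A summed to 3.21, 5.56 and 0.537 in LDM against 1.90, 1.21 and 1.07 in PMM, which overlapped. MSTRG.3019.1 in FARP1, a FERM domain exchange factor, was at 1.84, 4.23 and 0 against 1.84, 4.45 and 2.66. Transcription factors and signalling of fibre type gave 5 hosts with 10 transcripts and 3 tested, in KLF13, NFATC2 and PPP3CA, with adjusted p from 0.753 to 0.971 (limma).

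NFATC2 and PPP3CA, the catalytic subunit of calcineurin, act in 1 pathway that links calcium to transcription. MSTRG.8885.1 in NFATC2 was at 0.652, 1.38 and 0.291 FPKM in LDM against 0, 0.355 and 0.563 in PMM, and MSTRG.18101.1 in PPP3CA at 1.16, 1.56 and 0.0959 against 1.44, 0.781 and 0.268. In both the muscles overlapped.

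Of the mitochondrial list, 2 hosts held 5 transcripts, and the only one tested was that in MRPS18A, while the 4 in CHCHD3, a cristae organising protein, were not detected in all 3 libraries of a muscle. HADH, an enzyme of fatty acid β-oxidation, held 1 transcript, at 0.550, 0 and 3.81 FPKM in LDM against 0.703, 3.74 and 1.54 in PMM. No host was on the list for glycolysis and glycogen.

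Introns of genes on lists for other cell types gave little. The immune list had 1 host, the class I gene SLA-11, with 4 transcripts summing to 0 to 7.497 FPKM in LDM against 1.29 to 3.21 in PMM. Whether SLA-11 marks immune cells in these muscles was not tested. Markers of fibroblasts and pericytes had 1 host, PDGFRB, with 1 transcript at 1.20 to 2.19 in LDM against 1.58 to 2.83 in PMM. No host was on the endothelium, adipocyte, nerve or satellite cell lists. The part of other cell types in the differences above was not tested.

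Against the other lncRNAs, the intronic class resembled the intergenic one. The share that met the rule of detection was 40.6% (36.3 to 45.0) for intronic, 40.9% for intergenic and 63.2% (55.6 to 70.4) for antisense transcripts. Transcripts of 2 or more exons made up 7.92%, 9.40% and 33.3%, and the median mean level was 0.426, 0.440 and 0.751 FPKM. One entry fell outside the usual sense of the class, as MSTRG.1457.1 is placed in an intron of IFN-ALPHA-15 although interferon alpha genes are known to lack introns. It was noticed after the values were seen, and the class was used as deposited.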

How the data were processed

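The 6 libraries were paired-end reads of 150 bases from RNA depleted of ribosomal RNA. The authors aligned them with Tophat to Sscrofa 11.1. The methods name Cufflinks for assembly, while the transcript names begin with MSTRG. On 18 of 19 chromosomes the table's positions run past the last annotated gene of that assembly, so their build is not settled, and no sequence was read. The deposited FPKM and the deposited coverage, a signal per base with no scaling between libraries, were used as given, and the authors' coding potential scores from CPC and CNCI set no further filter here. Of 110 hosts listed by Ensembl ID, 61 were given a symbol from a gene name table.

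Values were compared as log2(FPKM + 1), which understates changes of low transcripts, with limma (3.58.1), an intensity trend and Benjamini-Hochberg adjustment over 1721 transcripts. The code was tested on simulated data. Alternatives were pseudocounts of 0.1 and 0.01, filters, median-of-ratios scaling, no trend, a replicate block, sums per host and each library left out. Libraries with the same replicate number deviated together, with correlations of 0.239, 0.123 and 0.168 between their distances from the mean of the muscle, against -0.179 to 0.0423 for different numbers. The number was therefore used as a pairing, although the labels do not state one.

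Transcripts were named if called, then up to 8 per direction by smallest p without overlap and with a mean of at least 1 FPKM in the higher muscle, the 4 highest per muscle, the 4 highest of 2 or more exons, the 4 hosts with symbols and most transcripts, and up to 3 per gene list. The members and lists were chosen with earlier results of these data known. Intervals of shares are Clopper-Pearson intervals at 95%. Software was R 4.3.3 and, under Python 3.11.15, scipy 1.17.1, pandas 2.3.3, matplotlib 3.10.9 and numpy 2.4.6.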

Additional observations from a re-analysis of the deposited data

How the results depend on the processing

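The count of intronic transcripts at an adjusted p under 0.05 in limma was 0 with all libraries, and it was also 0 with a pseudocount of 0.1, median-of-ratios scaling, no intensity trend and sums per host. It was 13 with a pseudocount of 0.01 (6.34% of those tested, against 4.53% of all lncRNAs tested), 2 with no filter on low values (0.396% against 0.42%), 3 with at least 1 FPKM in all 3 libraries of a muscle (4.41% against 1.35%), 3 with the replicate block, and 0 to 1 with a library left out. The filter at 1 FPKM, like the main one above 0, admits a transcript through the muscle where it is high. A transcript at 0 in the other muscle then differs the more, the smaller the pseudocount. Calls of transcripts admitted in this way therefore do not support a difference. The MRPS18A transcript, at 8.17 FPKM or more in all 6 libraries, was not admitted through 1 muscle alone. Its adjusted p was under 0.05 in 4 of the 13 other fits (limma), the block among them. With the second rule, unadjusted p under 0.05 and a log2 difference of 1 or more in size, the count went from 9 to 26 and 25 with pseudocounts of 0.1 and 0.01 (12.7% and 12.2%, against 9.53% and 9.3% of all tested), to 5 at 1 FPKM (7.35% against 6.07%), and to between 9 and 21 with a library left out. The block changed the call of no other intronic transcript than the 3 given. At 1 FPKM or more, 36 transcripts were listed in all 3 LDM and 61 in all 3 PMM libraries, with a mean of 158 per LDM and 153 per PMM library, and the detected shares were 10.8% for 1 exon, 45.0% for 2 or more, 19.5% for hosts with 1 and 8.97% for hosts with several. With hosts taken from the gene ID, which only 1 pair of transcripts shares, the shares were 40.6% and 50%. With a library left out, the rule of detection asked only for the libraries that remained in its muscle. On this looser rule the share ranged from 40.0% to 44.9% for 1 exon, 52.6% to 58.1% for hosts with 1 and 37.6% to 43.8% for hosts with several. Of 379 values for 30 named transcripts, 15 changed sign, in 7 transcripts that passed the test in no fit. The 30 leave out transcripts given only as members of a host, such as those of PDLIM5. All 4 differences of PDLIM5 changed sign without LDM replicate 2. With a library left out, the log2 difference ranged from -0.028 to 0.33 for MSTRG.10182.1 (ENSSSCG00000013671), -0.037 to 0.66 for NEDD4L, -0.20 to 0.42 for PPP3CA, -0.48 to 0.53 for GRB10, -1.19 to 0.0057 for FARP1, -0.21 to 0.15 for CMSS1 and -0.077 to 1.45 for EXD1. The difference for PPP3CA was -0.092 and -0.23 with pseudocounts of 0.1 and 0.01, and that for CMSS1 was 0.15 with median-of-ratios scaling. The cause of these changes was not tested.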
